A study of Caenorhabditis elegans with 12 samples.

Results

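Complex II of the respiratory chain, succinate dehydrogenase, was described here through the 5 *C. elegans* genes that encode its subunits: *sdha-1*, *sdha-2*, *sdhb-1*, *mev-1* and *sdhd-1*. They were taken by their WormBase names from a table of 46739 genes, and all 5 passed the filter on low counts in both comparisons. Succinate dehydrogenase sits in the inner mitochondrial membrane and oxidises succinate to fumarate, a step of the citric acid (TCA) cycle, while it hands the electrons to ubiquinone. The flavoprotein subunit holds the FAD at which succinate is oxidised, the iron-sulfur subunit carries the electrons on, and a pair of cytochrome b subunits anchors the enzyme in the membrane and binds ubiquinone. The worm has 2 flavoprotein genes, *sdha-1* and its paralog *sdha-2*, 1 gene for the iron-sulfur subunit (*sdhb-1*), 1 for the large anchor subunit known elsewhere as SDHC (*mev-1*, whose mutants are hypersensitive to the superoxide generator methyl viologen) and 1 for the small anchor subunit (*sdhd-1*).

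The libraries were made from total RNA of whole worms labelled as L4 larvae, with 3 libraries per group. The *atfs-1(null)* worms lack the open reading frame of *atfs-1*, a transcription factor of the mitochondrial unfolded protein response, and were set against N2 wild-type worms of the same experiment (experiment 1). The *atfs-1(et18)* worms carry an amino acid substitution in the mitochondrial targeting sequence of ATFS-1 that impairs its import and leaves the response on, and were set against a separate set of N2 worms (experiment 2, labelled batch 2). The *et18* allele came from a screen for statin resistance, each mutant group is a single strain in the N2 background, and the labels give OP50 bacteria as food whereas the study's methods for RNA name HT115. The study asked how ATFS-1 shapes the expression of mitochondrial genes.

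Total counts ran between 24090660 and 37050803 per library. The targeted gene *atfs-1* had 27, 22 and 19 counts in *atfs-1(null)* worms, against 1558, 1104 and 1425 counts in wild-type worms. In *atfs-1(null)* worms 11 of 11 germline genes, 8 of 8 oocyte genes, 6 of 6 vitellogenin genes (yolk proteins of the adult intestine) and 27 of 28 major sperm protein genes tested were higher, while 6 of 8 body wall muscle genes and 6 of 7 intestine genes tested were lower. Among all genes tested, 32.9% were higher and 35.4% lower in *atfs-1(null)* worms, and 9.42% higher and 7.51% lower in *atfs-1(et18)* worms. When scaled on library size only, 4 of the 8 muscle genes were lower and 1 higher in *atfs-1(null)* worms. With that scaling 4190 of 15620 genes were lower and 6244 higher. DESeq2 called 5 muscle genes lower, and 4922 of the 18987 genes it tested. For *atfs-1(et18)* worms, 6 of 8 muscle genes were lower, 2 of 7 intestine genes were higher and none of the genes of the other 4 lists passed edgeR's test. At an unadjusted p under 0.05 these lists held 1 germline and 3 oocyte genes, all higher. The share of all genes at that threshold is not given here or below. DESeq2 called 3 oocyte genes, and 3728 of all 17947 genes it tested. With the replicate number as a block, 5 oocyte genes, 3 vitellogenins and 1 germline gene passed, all higher, where 1674 of 15639 genes were higher. *atfs-1(null)* replicate 3 and *atfs-1(et18)* replicate 2 stood apart from the other libraries of their groups: the chi-square per degree of freedom of their counts against those of the same group was 115 to 147, and 10.1 to 37.4 for all other pairs within a group. In whole worms, fewer cells of a type and less RNA per cell cannot be told apart. The study reports that both mutant strains developed slowly. How closely mutant and wild-type libraries match in stage beyond the L4 label was not tested.

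Levels per length put the *sdha-2* paralog far below the other subunits in wild-type worms. In the wild type of experiment 1 the mean level in RPKM (counts scaled to library size per kilobase of exon, ± SD, n = 3) was 216 ± 9.15 for *mev-1*, 213 ± 5.64 for *sdhb-1*, 164 ± 21.1 for *sdhd-1*, 143 ± 6.01 for *sdha-1* and 20.1 ± 4.31 for *sdha-2*. The single-library RPKM values of *mev-1* and *sdhb-1* overlapped, as did those of *sdhd-1* and *sdha-1*, whereas *sdha-2* lay apart from all 4. The wild type of experiment 2 gave the same order in RPKM, with 188 ± 0.422 for *mev-1*, 181 ± 7.53 for *sdhb-1*, 142 ± 10.2 for *sdhd-1*, 120 ± 7.52 for *sdha-1* and 21.0 ± 1.68 for *sdha-2* (SD, n = 3), and *mev-1* and *sdhb-1* again overlapped. Of the genes tested in experiment 1, 3.74% had a higher wild-type RPKM than *mev-1* and 31.7% a higher one than *sdha-2*.

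In *atfs-1(null)* worms the order in RPKM was *sdhb-1* (139 ± 4.14), *mev-1* (123 ± 3.46), *sdhd-1* (106 ± 4.20), *sdha-1* (57.6 ± 6.29) and *sdha-2* (56.5 ± 16.9, SD, n = 3), and the flavoprotein paralogs overlapped. The order in *atfs-1(et18)* worms was *sdhb-1* (175 ± 3.71), *mev-1* (170 ± 10.7), *sdhd-1* (139 ± 0.506), *sdha-1* (92.8 ± 9.64) and *sdha-2* (33.1 ± 9.43, SD, n = 3), with overlap between *sdhb-1* and *mev-1* only.

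**Figure D1:**
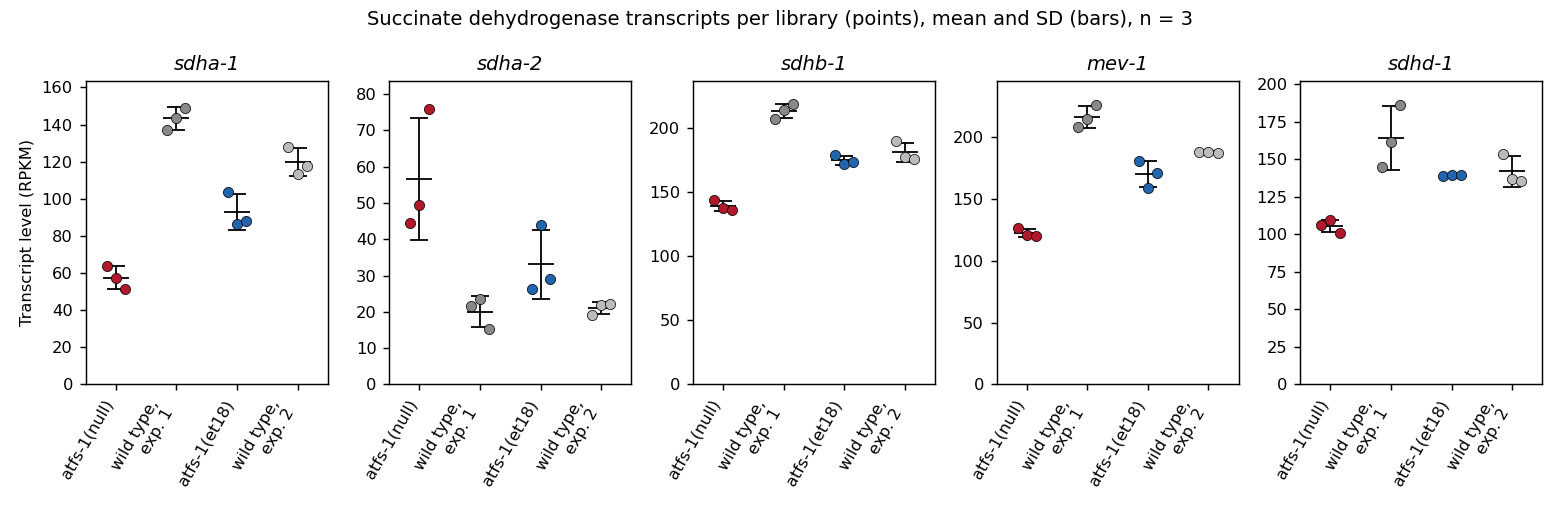
Level of each succinate dehydrogenase transcript in every library (y axis, RPKM from 0, each panel on its own scale), with *atfs-1(null)* left of the wild type of experiment 1 and *atfs-1(et18)* left of the wild type of experiment 2. Points are libraries, bars the mean ± SD (n = 3). In *atfs-1(null)* worms *sdha-2* averaged 56.5 RPKM, against 20.1 RPKM in wild-type worms, while the other 4 transcripts lay below their wild type.

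Loss of *atfs-1* was accompanied by lower transcripts of the 4 other subunit genes and a higher transcript of *sdha-2*. All 5 genes passed the test (adjusted p under 0.05 over all genes, edgeR quasi-likelihood test), where 68.3% of the 15620 genes tested did so. 4 were lower, against 35.4% of all genes, and 1 was higher, against 32.9%. The groups overlapped for none of the 5: 4 lay below the wild type in every mutant library, as 39.7% of all genes did, and 1 above, as 34.5% did. The median log2 fold change of the 5 was -0.64, and that of all genes -0.04. Since most genes passed the test, the count alone does not set these 5 apart.

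The main flavoprotein gene *sdha-1* (WBGene00015391, chromosome X:8542867-8546021, minus strand, WBcel235) had 146, 132 and 118 counts scaled to library size (CPM) in *atfs-1(null)* worms, against 314, 329 and 342 CPM in wild-type worms. Every mutant library was below every wild-type library. Its log2 fold change was -1.32 (SE 0.11, edgeR adjusted p = 0.000214), or 2.49-fold lower, and 11.7% of the genes tested had a more negative one.

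The paralog *sdha-2* (WBGene00016392, chromosome I:10683268-10685624, minus strand) had 92.2, 102 and 157 CPM in *atfs-1(null)* worms, against 44.7, 48.6 and 31.5 CPM in wild-type worms. Every mutant library was above every wild-type library, and replicate 3 was the highest mutant and also the lowest wild-type value. The log2 fold change was 1.49 (SE 0.25, edgeR adjusted p = 0.00175), or 2.82-fold higher, and 16.2% of the genes tested had a more positive one. Without *atfs-1(null)* replicate 3 it was 1.21 (edgeR adjusted p = 0.00109). How reads that match both paralogs were counted is not given in the sources used here, so the split between *sdha-1* and *sdha-2* is uncertain to that extent.

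The iron-sulfur gene *sdhb-1* (WBGene00006433, chromosome II:9350652-9352797, minus strand) had 170, 162 and 161 CPM in *atfs-1(null)* worms, against 245, 253 and 258 CPM in wild-type worms. The groups did not overlap, and the log2 fold change was -0.62 (SE 0.08, edgeR adjusted p = 0.000728). Without TMM factors (scaling on library size only) the median of all genes was 0.25 higher, and *sdhb-1* stood at -0.37 (edgeR adjusted p = 0.00597).

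The large anchor gene *mev-1* (WBGene00003225, chromosome III:10334267-10335181, plus strand) had 94.99, 90.8 and 90.2 CPM in *atfs-1(null)* worms, against 156, 161 and 170 CPM in wild-type worms. Its log2 fold change was -0.82 (SE 0.09, edgeR adjusted p = 0.000354), with no overlap between the groups. The end of *mev-1* shares 10 exon bases with *ced-9*, a cell death inhibitor gene on the same strand that is transcribed with it in 1 operon. *ced-9* moved the other way, with 70.0 CPM in *atfs-1(null)* worms and 22.4 CPM in wild-type worms on average and a log2 fold change of 1.64 (SE 0.21, edgeR adjusted p = 0.000621).

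The small anchor gene *sdhd-1* (WBGene00009353, chromosome II:11049144-11051753, minus strand) had 74.1, 76.3 and 70.5 CPM in *atfs-1(null)* worms, against 101, 113 and 130 CPM in wild-type worms. The wild-type libraries were the more scattered, and all lay above the mutant ones. The log2 fold change was -0.64 (SE 0.12, edgeR adjusted p = 0.00271), and -0.39 when scaled on library size only (edgeR adjusted p = 0.0183). It shares 93 exon bases with *ilkp-1* on the opposite strand, which averaged 1.96 CPM in *atfs-1(null)* worms and 4.66 CPM in wild-type worms. Whether counting used strand is not given in the sources used here.

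**Figure D2:**
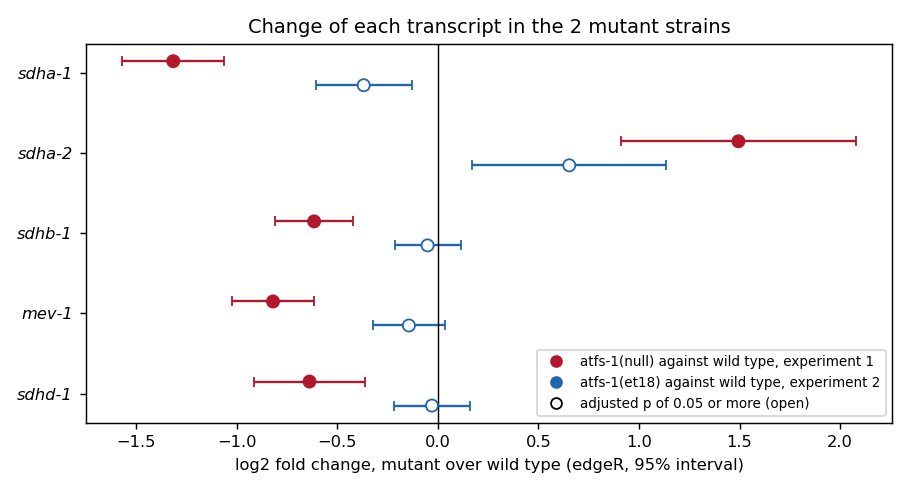
Fitted log2 fold change of each gene, mutant over wild type (x axis), with its 95% interval from edgeR. Red is *atfs-1(null)* in experiment 1, blue is *atfs-1(et18)* in experiment 2, and open points did not pass the test. All 5 red points are filled, from -1.32 for *sdha-1* to 1.49 for *sdha-2*, and all 5 blue points are open.

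The share of each paralog in the flavoprotein transcripts was compared next. Per length, *sdha-2* made up 41.0, 46.2 and 59.6% of *sdha-1* plus *sdha-2* in *atfs-1(null)* worms, against 13.6, 14.03 and 9.25% in wild-type worms. The difference was 36.7 percentage points, with no overlap (two-sided exact permutation test p = 0.1). This is the smallest p that 3 against 3 libraries allow. In all, 16 shares, sums and ratios were tested in this way, and the smallest p was 0.133 after Benjamini-Hochberg adjustment over them. Because both genes were read in the same library, the share does not depend on how libraries were scaled.

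The summed flavoprotein level was 108, 107 and 127 RPKM in *atfs-1(null)* worms, against 159, 167 and 164 RPKM in wild-type worms. The mutant mean of 114 ± 11.3 RPKM was 69.9% of the wild-type mean of 163 ± 4.20 RPKM (SD, n = 3, exact permutation p = 0.1). Relative to *sdhb-1*, the partner subunit in the same enzyme, the sum was 0.753, 0.777 and 0.934 in *atfs-1(null)* worms and 0.766, 0.780 and 0.753 in wild-type worms. These ratios overlapped, with mutant replicate 3 above every wild-type value (0.821 ± 0.0984 in *atfs-1(null)* worms, 0.766 ± 0.0136 in wild-type worms, SD, n = 3, exact permutation p = 0.6). *sdha-1* alone was 0.413 ± 0.0338 of *sdhb-1* in *atfs-1(null)* worms and 0.672 ± 0.0106 in wild-type worms, without overlap (SD, n = 3, exact permutation p = 0.1).

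The anchor genes were also set against *sdhb-1*. The ratio of *mev-1* to *sdhb-1* per length was 0.879, 0.879 and 0.883 in *atfs-1(null)* worms, against 1.00, 1.00 and 1.03 in wild-type worms (exact permutation p = 0.1). That of *sdhd-1* to *sdhb-1* was 0.759 ± 0.0315 in *atfs-1(null)* worms and 0.770 ± 0.0789 in wild-type worms, with overlap (SD, n = 3, exact permutation p = 0.8).

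**Figure D3:**
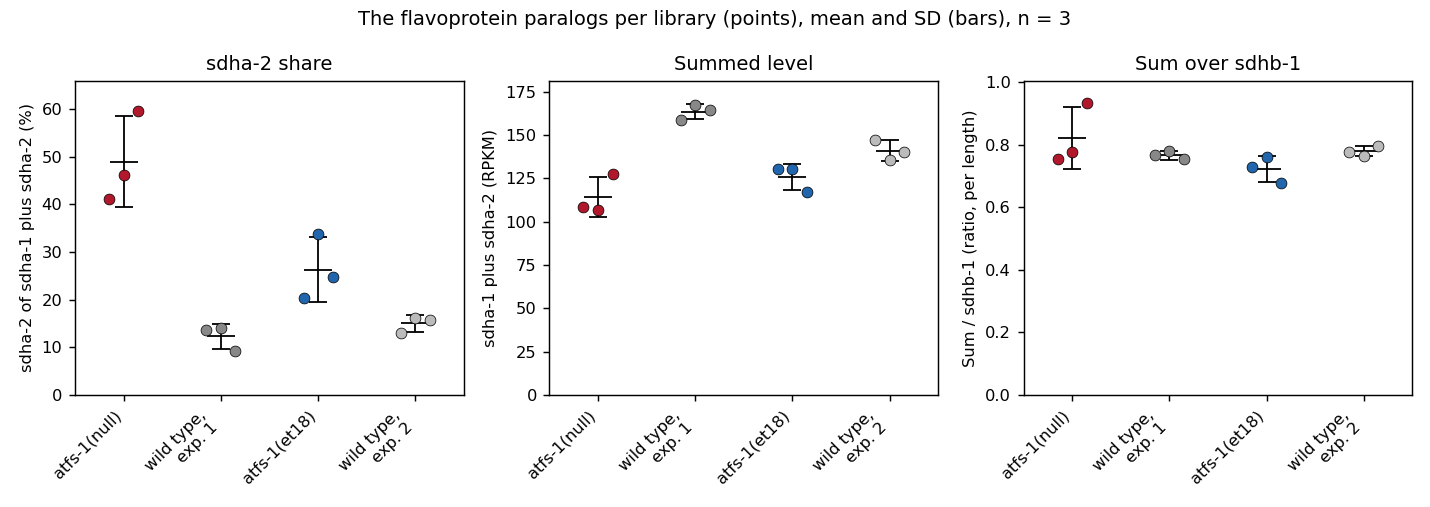
The flavoprotein paralogs in every library, with each mutant left of its wild type. The panels give, from the left, the *sdha-2* share of both transcripts per length (%), their summed level (RPKM) and the sum divided by *sdhb-1* per length. Points are libraries, bars the mean ± SD (n = 3), and all y axes start at 0. The *sdha-2* share averaged 48.9% in *atfs-1(null)* worms and 12.3% in wild-type worms, while the groups of the right panel overlap in experiment 1 and not in experiment 2.

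None of the 5 genes passed the test in *atfs-1(et18)* worms, where 16.9% of 15639 genes did so, 9.42% higher and 7.51% lower (edgeR quasi-likelihood test). 2 had an unadjusted p under 0.05, and DESeq2 called those 2, *sdha-1* and *sdha-2*, where it called 3728 of 17947 genes. *sdha-1* had 238, 198 and 202 CPM in *atfs-1(et18)* worms, against 294, 260 and 270 CPM in wild-type worms. All mutant libraries were below the wild-type ones, and the log2 fold change was -0.37 (95% interval -0.61 to -0.13, edgeR adjusted p = 0.0504). *sdha-2* had 54.8, 91.0 and 60.2 CPM in *atfs-1(et18)* worms, against 39.6, 45.6 and 45.7 CPM in wild-type worms. All mutant libraries were above the wild-type ones, with replicate 2 the highest, and the log2 fold change was 0.65 (95% interval 0.17 to 1.14, edgeR adjusted p = 0.0715).

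Same-numbered libraries of experiment 2 deviated together, though for replicate 3 only at a correlation of 0.10, against 0.45 between mutant replicate 3 and wild-type replicate 1. Both paralogs passed the test in the fit that held the replicate number as a block, where 3202 of 15639 genes passed. Its log2 fold changes were -0.37 for *sdha-1* (edgeR adjusted p = 0.0260) and 0.62 for *sdha-2* (edgeR adjusted p = 0.0398). Without *atfs-1(et18)* replicate 2, *sdha-2* had a log2 fold change of 0.40 and passed (edgeR adjusted p = 0.0215). Without replicate 1, both paralogs passed, at -0.47 and 0.78 (edgeR adjusted p = 0.0416 and 0.0493). In the other 4 fits that left out a library neither passed (edgeR adjusted p between 0.0942 and 0.234), nor did *sdha-1* without replicate 2 (edgeR adjusted p = 0.0512).

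The other 3 subunit genes had log2 fold changes between -0.14 and -0.03. *sdhb-1* had 211, 202 and 205 CPM in *atfs-1(et18)* worms, against 224, 209 and 208 CPM in wild-type worms, a log2 fold change of -0.05 (95% interval -0.21 to 0.11, edgeR adjusted p = 0.629). *mev-1* had 135, 119 and 128 CPM in *atfs-1(et18)* worms, against 141, 141 and 141 CPM in wild-type worms, a log2 fold change of -0.14 (95% interval -0.32 to 0.04, edgeR adjusted p = 0.223). *sdhd-1* had 96.7, 97.4 and 97.2 CPM in *atfs-1(et18)* worms, against 107, 95.5 and 94.4 CPM in wild-type worms, a log2 fold change of -0.03 (95% interval -0.22 to 0.16, edgeR adjusted p = 0.815). Of the 5 genes, *sdha-1* and *mev-1* lay below their wild type in every mutant library, which 19.6% of all genes did, and *sdha-2* above, which 22.9% did. *sdhb-1* and *sdhd-1* overlapped.

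Per length, *sdha-2* made up 20.3, 33.7 and 24.7% of the flavoprotein transcripts in *atfs-1(et18)* worms, against 13.0, 16.2 and 15.8% in wild-type worms. The groups did not overlap, and the difference of 11.2 percentage points (exact permutation p = 0.1, the smallest possible) was 7.52 points without *atfs-1(et18)* replicate 2. The sum of both averaged 126 ± 7.52 RPKM in *atfs-1(et18)* worms, 89.4% of the 141 ± 5.94 RPKM in wild-type worms (SD, n = 3, exact permutation p = 0.1). Relative to *sdhb-1*, the sum was 0.729, 0.760 and 0.676 in *atfs-1(et18)* worms, against 0.778, 0.765 and 0.795 in wild-type worms, with every mutant library below every wild-type one (exact permutation p = 0.1).

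Whether the mutants differed in their changes was tested in a single fit over all 12 libraries, in which strain and experiment cannot be told apart. The change in *atfs-1(null)* worms minus that in *atfs-1(et18)* worms was -0.91 for *sdha-1* (edgeR adjusted p = 0.000622), -0.52 for *sdhb-1* (0.00309), -0.63 for *mev-1* (0.00188) and -0.57 for *sdhd-1* (0.0116) on the log2 scale. These 4 passed the test, all lower, where 49.0% of 16188 genes passed in either direction and 26.1% were lower. Without a filter on low counts *sdhb-1* (-0.41, edgeR adjusted p = 0.0630) and *sdhd-1* (-0.46, edgeR adjusted p = 0.0706) did not pass. For *sdha-2* the difference was 0.90 (95% interval 0.12 to 1.68, edgeR adjusted p = 0.0543) and did not pass. Leaving out a library gave between 0.58 without *atfs-1(null)* replicate 3 (edgeR adjusted p = 0.117) and 1.15 without *atfs-1(et18)* replicate 2 (edgeR adjusted p = 0.0116). It also passed without *atfs-1(null)* replicate 1 (1.07, edgeR adjusted p = 0.0303), and in none of the other 10 such fits.

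Other enzymes of the pathway were lower in *atfs-1(null)* worms along with the 4 subunits. Over all genes tested, 35.4% were lower and 32.9% higher in *atfs-1(null)* worms, and 7.51% lower and 9.42% higher in *atfs-1(et18)* worms. Of 17 other TCA and glyoxylate cycle genes, 14 were lower and 1 higher (median log2 fold change -0.75, all genes -0.04), the largest change being -1.56 for *idh-2*, an isocitrate dehydrogenase. Of 7 genes that make succinate or use fumarate, 6 of which are among those 17, 5 were lower and 1 higher, with *sucl-1*, which encodes a subunit of the succinyl-CoA ligase that forms succinate, at -1.44 (edgeR adjusted p = 0.000208). Of 4 other dehydrogenases that feed the quinone pool, 3 were lower, the most *prdh-1* (proline dehydrogenase) at -0.87. Of the 17 cycle genes, 2 were lower in *atfs-1(et18)* worms and 1 higher (*aco-2*, the mitochondrial aconitase, at 0.52). None of the 7 succinate and fumarate genes passed edgeR's test, was called by DESeq2 or had an unadjusted p under 0.05 (a count of 0 each). DESeq2 called 3728 of all 17947 genes it tested in *atfs-1(et18)* worms. Of the 4 quinone pool genes 1 was higher and 1 lower there (*prdh-1* at -0.46). When scaled on library size only, 4190 of 15620 genes tested were lower and 6244 higher in *atfs-1(null)* worms. Of the 17 cycle genes 13 were then lower and 2 higher, and of the 7 succinate and fumarate genes 5 and 1. Of the 4 quinone pool genes 2 were lower and 0 higher.

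The nuclear genes of the other respiratory complexes gave counts of the same kind. In *atfs-1(null)* worms 13 of 14 complex I genes were lower and 1 higher (median -0.83), 6 of 7 complex III genes lower and 1 higher (-0.91), 7 of 7 complex IV genes lower (-0.80) and 7 of 9 ATP synthase genes lower and 1 higher (-0.88). The median of the 5 succinate dehydrogenase genes was -0.64, and that of all genes -0.04. Over all genes tested, 35.4% were lower and 32.9% higher. The genes with the largest changes named here were *ucr-2.3* of complex III at 1.71, *cox-6C* of complex IV at -1.03 and *asg-2* of the ATP synthase at -1.44. In *atfs-1(et18)* worms, where 16.9% of all genes passed, *atp-5* of the ATP synthase passed, at -0.32, and no other gene of these 4 complexes did. At an unadjusted p under 0.05 there were 1 gene of complex I, 0 of complex III, 3 of complex IV and 6 of the ATP synthase. DESeq2 called *atp-5* alone, and 3728 of all 17947 genes it tested. The replicate block called 3 ATP synthase genes, all lower, where 1528 of 15639 genes were lower.

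Paralogs of other respiratory chain subunits were set beside those of the flavoprotein. For the core protein of complex III, *ucr-2.3* had a log2 fold change of 1.71, *ucr-2.1* of -1.29 and *ucr-2.2* of -1.34. For the ATP synthase b subunit, *asb-1*, known as the germline form, had 1.01 and *asb-2* -1.39. For cytochrome c, *cyc-2.2* had 2.05 and *cyc-2.1* -0.93. The ATP synthase g subunit differed, with -1.44 for *asg-2* and -0.21 for *asg-1*, which did not pass the test (edgeR adjusted p = 0.0646) and stood at 0.03 when scaled on library size only. In *atfs-1(et18)* worms none of these 9 genes passed edgeR's test, which 16.9% of all genes did, or was called by DESeq2, and 4 had an unadjusted p under 0.05. Their log2 fold changes lay between -0.40 (*asg-2*) and 0.42 (*ucr-2.3*). With the replicate block *asg-2* (-0.40, edgeR adjusted p = 0.0440) and *cyc-2.1* (0.28, edgeR adjusted p = 0.0422) passed, where 3202 of 15639 genes did. DESeq2 called 3728 of 17947 genes.

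**Figure D4:**
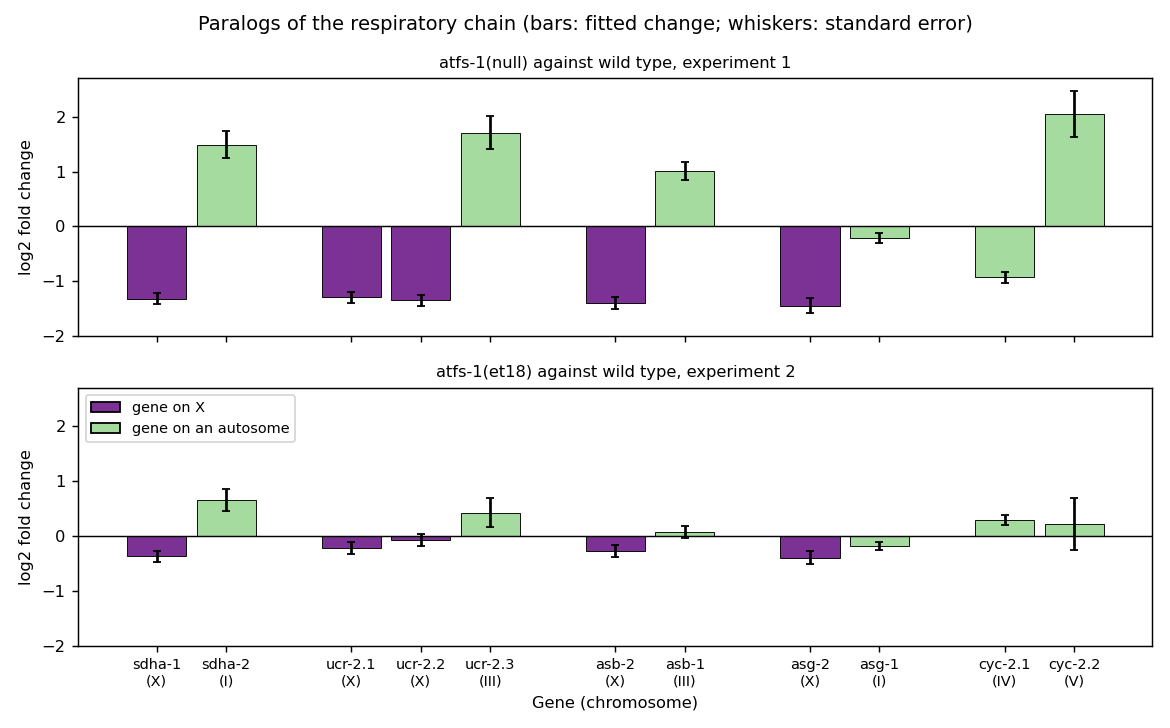
Fitted log2 fold change, mutant over wild type (y axis, whiskers give the standard error), for *sdha-1*, *sdha-2* and 9 paralogous genes of complex III, the ATP synthase and cytochrome c, grouped by subunit and named with their chromosome. The top panel is *atfs-1(null)*, the bottom one *atfs-1(et18)*, and genes on X are purple, autosomal ones green. In the top panel *sdha-2*, *ucr-2.3*, *asb-1* and *cyc-2.2* lie between 1.01 and 2.05 and their paralogs between -1.39 and -0.93.

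Germline markers moved with *sdha-2* in *atfs-1(null)* worms. The summed level of the 11 germline genes was 1836, 2102 and 2832 CPM in *atfs-1(null)* worms, against 722, 882 and 457 CPM in wild-type worms. Replicate 3 was the highest mutant and the lowest wild-type library, as for *sdha-2*. The 8 oocyte genes summed to between 2528 and 5271 CPM in *atfs-1(null)* worms and to between 112 and 320 CPM in wild-type worms, and the 6 vitellogenins to between 11128 and 31287 CPM in *atfs-1(null)* worms and between 696 and 2237 CPM in wild-type worms. The 31 sperm genes summed to 1274, 1440 and 596 CPM in *atfs-1(null)* worms, against 159, 166 and 68.8 CPM in wild-type worms. Replicate 3 was thus the lowest mutant library for the sperm genes, unlike for *sdha-2*. For these lists too, no mutant library overlapped a wild-type one. The 8 muscle genes summed to between 7929 and 10226 CPM in *atfs-1(null)* worms and between 13482 and 14018 CPM in wild-type worms, and the 7 intestine genes to between 4477 and 5357 CPM in *atfs-1(null)* worms and between 12396 and 15092 CPM in wild-type worms. No gene of these lists was at 0 in the mutant, and 1 sperm gene was at 0 in wild-type worms. The part of these cell types in the changes of the 5 genes was not tested.

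In *atfs-1(et18)* worms the 11 germline genes summed to 696, 1462 and 851 CPM, against 825, 1009 and 966 CPM in wild-type worms. The 8 oocyte genes summed to 421, 1830 and 525 CPM in *atfs-1(et18)* worms, against 278, 553 and 360 CPM in wild-type worms, and the 6 vitellogenins to 5388, 21939 and 3296 CPM in *atfs-1(et18)* worms, against 1821, 7519 and 1348 CPM in wild-type worms. Replicate 2 was the highest mutant library in all 3 lists, as for *sdha-2*. The oocyte and vitellogenin sums were higher in each mutant library than in the wild-type library of the same number, also as for *sdha-2*, while the germline sum was so for replicate 2 only, and in all 3 lists the groups overlapped. The 31 sperm genes summed to 196, 872 and 272 CPM in *atfs-1(et18)* worms, against 190, 430 and 372 CPM in wild-type worms, also with overlap. The part of these cells in the values of *sdha-2* was not tested. Muscle genes summed to 10668, 11582 and 9758 CPM in *atfs-1(et18)* worms, against 15883, 16390 and 14215 CPM in wild-type worms. *sdha-1* was lower in the same libraries, with its lowest mutant value in replicate 2, where the mutant muscle sum was highest. In *atfs-1(null)* worms replicate 3 was lowest for *sdha-1* and for the muscle sum, and replicate 2 for the intestine sum. The intestine genes summed to 11119, 8528 and 10584 CPM in *atfs-1(et18)* worms, against 8451, 9090 and 8610 CPM in wild-type worms, with overlap. Among the *atfs-1(et18)* libraries the intestine sum and *sdha-1* were both highest in replicate 1 and lowest in replicate 2. The part of muscle or intestine in the values of *sdha-1* was not tested.

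**Figure D5:**
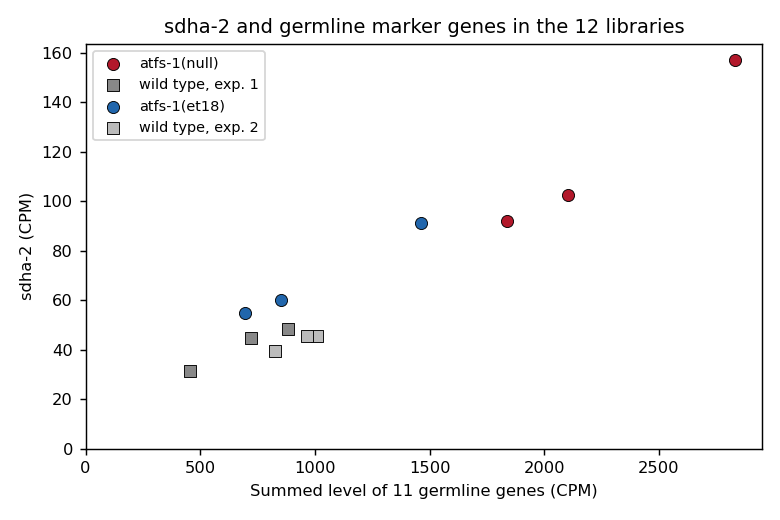
*sdha-2* (y axis, CPM) against the summed level of 11 germline genes (x axis, CPM) in the 12 libraries. Circles are mutants (red *atfs-1(null)*, blue *atfs-1(et18)*) and squares the wild type of each experiment. CPM were scaled within each experiment. The *atfs-1(null)* libraries have the highest germline sums, 1836 to 2832 CPM, with *sdha-2* at 92.2 to 157 CPM. *atfs-1(et18)* replicate 2 has the highest germline sum and *sdha-2* level of experiment 2, and its 91.0 CPM of *sdha-2* is close to the lowest *atfs-1(null)* value.

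The genes most like each paralog across the 12 libraries were found by the Pearson correlation of log2 CPM, taken as the difference from the wild-type mean of each experiment, among 16183 genes. The libraries share groups and scaling, so the values are a description. For *sdha-1* they were *idhb-1* (r = 0.999), which encodes a subunit of the NAD-dependent isocitrate dehydrogenase of the TCA cycle, *F17A9.4* (r = 0.998) and *T09B4.8* (r = 0.997). *idhb-1* had log2 fold changes of -1.40 in *atfs-1(null)* worms and -0.36 in *atfs-1(et18)* worms, beside -1.32 and -0.37 for *sdha-1*. For *sdha-2* they were *rrf-3* (r = 0.997), an RNA-dependent RNA polymerase gene, *fcd-2* (r = 0.995), the worm FANCD2 gene of DNA crosslink repair, and *gtf-2H1* (r = 0.995), a subunit gene of the transcription factor TFIIH. The fold changes of these 3 on the log2 scale lay between 0.67 and 1.20 in *atfs-1(null)* worms, beside 1.49 for *sdha-2*.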

How the data were processed

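Total RNA of whole worms was sequenced as single 50-base reads. The authors deposited raw counts per gene, with exon length; the submitters' processing notes name STAR 2.5.3a, featureCounts from Subread 1.5.2, edgeR 3.10.0 and the WBcel235 genome. The annotation release and the rules for strand and multi-mapping reads are not given in the sources used here. All 12 sample columns were used, and 0 were left out. For each experiment, genes passing filterByExpr (minimum count 10, minimum total 15) were fitted with edgeR 4.0.16 in R 4.3.3 (TMM scaling, quasi-likelihood test, Benjamini-Hochberg threshold 0.05 over all genes tested), and a fit of 16188 genes in all 12 libraries tested the difference between strains. CPM are TMM-scaled, and RPKM are CPM per kilobase of exon. edgeR's common biological coefficients of variation were 0.234 (experiment 1) and 0.242 (experiment 2). Shares and ratios were tested by two-sided exact permutation (Python 3.11.15, scipy 1.17.1). Intervals are 95%. The scripts were tested on simulated data with few changed genes, unlike these data. Of genes changed by 0.8 on the log2 scale, the fits recovered 25.6% (experiment 1) and 28.8% (experiment 2). The test of the difference between strains recovered 0 of 105 such genes. At a change of 1.5 the values were 91.2%, 92.7% and 47.4%.

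Replicates are as numbered in the labels, and nothing in the labels says that they came from separate cultures. The study's supplement describes these comparisons as 3 independent biological experiments. The p-values measure the spread between these libraries. Deviations of same-numbered mutant and wild-type libraries correlated at 0.64, 0.52 and 0.10 in experiment 2, and at -0.02, 0.52 and 0.32 in experiment 1. In experiment 2 mutant replicate 3 correlated more with wild-type replicate 1 (0.45). The labels do not state pairs, so fits with the replicate number as a block are given only as an alternative. The main tests did not use pairs. With same-numbered libraries paired, the difference in *sdha-2* share in experiment 2 had p = 0.25 (exact test by sign changes), the smallest that 3 pairs allow. Alternatives were DESeq2 1.42.0, scaling by library size alone, no filter, at least 1 CPM in 3 libraries, robust estimation, a single fit of all groups, a replicate block and leaving out each library. The members and gene lists were chosen with earlier results of these data known; the values by chromosome, for neighbouring genes and for the summed flavoprotein level were chosen after seeing the data. Named genes were the 5 members, the 3 genes most like each flavoprotein gene, the listed paralogs and, per list and comparison, the gene with the largest change among those passing the test; *ced-9* and *ilkp-1* were named for their overlap. Some listed genes are not reported here. No sequences were used here.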

Additional observations from a re-analysis of the deposited data

Results flagged for a closer look

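The difference between both mutants in their change, each against its own wild type, passed edgeR's test for 4 of the 5 genes, and for 49.0% of all 16188 genes tested. On the log2 scale the change in *atfs-1(null)* worms minus that in *atfs-1(et18)* worms was -0.91 for *sdha-1*, -0.52 for *sdhb-1*, -0.63 for *mev-1* and -0.57 for *sdhd-1*. The strains were sequenced in separate experiments, each with its own wild type, so strain and experiment cannot be told apart in these differences.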

How the results depend on the processing

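In *atfs-1(null)* worms all 5 genes passed the test in the same direction under every alternative run, 5 to 5 when a library was left out, and in the fit with a replicate block, which called 11003 genes against 10664; same-numbered libraries of that experiment correlated at -0.02, 0.52 and 0.32. Scaling by library size alone moved the median of all genes by 0.25 and the calls to 6244 higher and 4190 lower, against 5134 and 5530; the summed flavoprotein level then had a log2 ratio of -0.27, against -0.52. In *atfs-1(et18)* worms 0 genes passed, but DESeq2 called 2, library size alone 1, at least 1 CPM in 3 libraries 1, all 12 libraries in a single fit 1 and the replicate block 2, and leaving out a library gave 0 to 2; the call was *sdha-1* where it was 1, except without *atfs-1(et18)* replicate 2 (*sdha-2*). Over all genes, leaving out a library gave 833 to 4524 calls there, against 2648. *sdhd-1*, at -0.03, lay between -0.0646 and 0.03 when a library was left out, above 0 without wild type replicate 1 of experiment 2. The count of genes differing between strains was 4 to 5 when a library was left out; without a filter *sdhb-1* (-0.41, adjusted p = 0.063) and *sdhd-1* (-0.46, adjusted p = 0.0706) did not pass, and *sdha-2* passed without a filter, with DESeq2 and with library size alone (edgeR or DESeq2 adjusted p = 0.0236, 0.0373 and 0.026); the cause was not tested. The replicate block changed no other call of the 5 genes. With a library left out, the difference in *sdha-2* share was 31.3 to 40.6 points in experiment 1 and 7.52 to 14.2 points in experiment 2, and the log2 ratio of the sum -0.60 to -0.48 and -0.19 to -0.11. The 3 libraries per group limit exact tests to p = 0.1 or more.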

Other observations

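Among neighbouring genes, those beside *sdha-2* on the same strand did not share its direction in *atfs-1(null)* worms. *spcs-1*, whose human counterpart is a signal peptidase subunit and which lies 117 bases away, had a log2 fold change of -0.43 (edgeR adjusted p = 0.00581), and *ndua-13*, whose human counterpart is a complex I subunit and which lies 197 bases away, had -0.83 (edgeR adjusted p = 0.000370), beside 1.49 for *sdha-2*. The values in *atfs-1(et18)* worms were 0.58 for *spcs-1* (edgeR adjusted p = 0.00705) and -0.06 for *ndua-13* (edgeR adjusted p = 0.703). Beside *sdha-1*, *D2021.4*, 428 bases away on the same strand, did share its direction in *atfs-1(null)* worms, at -1.28 (edgeR adjusted p = 0.00188). *nspc-7*, on the opposite strand, had 0.85 and did not pass (edgeR adjusted p = 0.155). In *atfs-1(et18)* worms *D2021.4* had 0.41 (edgeR adjusted p = 0.0911) and *nspc-7* -1.25 (edgeR adjusted p = 0.145).

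*sdha-1* is on chromosome X, and the other 4 genes are autosomal. In *atfs-1(null)* worms the median log2 fold change of the 2210 X-linked genes tested was -0.72, with 57.9% lower and 12.04% higher, and that of the 13395 autosomal genes was 0.10, with 31.6% lower and 36.3% higher. For *atfs-1(et18)* worms the medians were -0.19 for 2188 X-linked genes, with 11.9% lower and 5.44% higher, and 0.11 for 13437 autosomal genes, with 6.81% lower and 10.01% higher. The 5 genes on X among *sdha-1* and the paralogs named above had log2 fold changes between -1.44 and -1.29 in *atfs-1(null)* worms.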
